A study of Mus musculus with 16 samples.

Results

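Protocadherins are transmembrane cell adhesion proteins of the cadherin superfamily. The 44 genes described here are all entries of the expression table whose symbol begins with Pcdh, out of 21455 entries with a gene symbol. They comprise 13 genes of the alpha cluster, 3 of the beta cluster and 22 of the gamma cluster, and 6 genes outside the clusters (Pcdh1, Pcdh7, Pcdh8, Pcdh17, Pcdh18 and Pcdh19). The GENCODE M21 annotation holds 69 mouse genes with such a symbol, and the table held every annotated alpha and gamma gene, 3 of 22 beta genes and 6 of 12 non-clustered genes. The remaining genes were not analysed here. All 44 genes had a normalized count of at least 1 in 2 or more libraries and were tested.

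The clustered genes lie in 3 neighbouring arrays. In the alpha and gamma arrays, each gene has its own large first exon, which encodes the extracellular and transmembrane parts, and this exon is spliced to constant exons that all genes of that array share. Beta genes and the non-clustered genes have no such shared exons. In neurons, alternative promoters are chosen in different combinations from cell to cell, and the resulting set of surface proteins lets a neuron tell its own branches from those of others. The C-type genes at the ends of the alpha and gamma arrays (Pcdhac1, Pcdhac2, Pcdhgc3, Pcdhgc4, Pcdhgc5) are regulated differently from the alternative genes. Non-clustered protocadherins are used in cell sorting and migration in early embryos, and Pcdh8 is related to the paraxial protocadherin of the frog.

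RNA was sequenced in 16 libraries of the mouse embryonic stem cell line E14tg2a, in 8 groups of 2. P14 cells were sampled at day 2 and day 4 (d2, d4) of induction toward epiblast-like cells. DKO cells and WT cells were sampled at both days and also before induction, in 2i medium. The 2i medium is N2B27 with LIF (1000 U/mL), CHIR99021 (3 µM, against GSK3β) and PD0325901 (1 µM, against MEK), and induction was in N2B27 with bFGF (12 ng/mL) on fibronectin. Per the series, the cells are wild type, carry a knockout of Prdm14 in cis or overexpress Prdm14, a zinc finger protein of naive pluripotency and germ cells. P14 was matched to the overexpressing cells and DKO to the knockout by elimination. The alleles, the promoter of the transgene, the number of clones and whether paired libraries came from separate cultures are not stated in these sources, so the p-values reflect only how far these libraries spread, which may be technical.

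Prdm14 averaged 10852 ± 259 normalized counts in P14 d2 libraries and 7534 ± 679 in P14 d4 libraries (SD, n = 2 in every group). The libraries labelled DKO held 1803.0 in both 2i libraries, 1310 ± 53 at d2 and 583 ± 17 at d4. WT libraries held 1089 ± 9.4 in 2i, 669 ± 61 at d2 and 193 ± 37 at d4. The label P14 thus went with the most Prdm14 transcript, while the libraries labelled DKO held more than WT at every stage. The deleted part is not described, and the cause of the higher counts in DKO was not tested. DKO therefore stands below for the libraries labelled DKO. As markers of the labelled cell type, 11 of 12 listed pluripotency genes were measured and none was at 0 in a whole group, with summed levels of 72802 to 75676 in WT 2i and 17452 to 18301 in WT d4. The libraries held 20696338 to 32710604 recovered reads. With a pair of libraries per group, a single library can decide a call, and such cases are named beside the values.

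Reads in the shared exons appear to have been counted for every gene of their cluster, which is inferred from near-identical counts. This governs how the clustered genes can be read. In GRCm38 the alpha genes span chr18:36930184-37187661 and share 2860 exon bases, and the gamma genes span chr18:37661793-37841873 and share 2116. In any library, the 21 gamma genes other than Pcdhgc3 lay within 1.03 to 1.15 times of each other. The calls on 22 gamma genes are therefore close to 1 measurement repeated. After these values had been seen, 2 quantities were added to the same model. The lowest gene of a cluster in each library was taken once, as the level of the shared reads, and the excess of each gene over that lowest gene was taken as the reads of its own exons, since shared reads cancel in the difference. Readthrough gene models on the same strand overlap parts of both clusters and their reads are included.

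In WT cells the shared reads of the gamma cluster rose between day 2 and day 4 of induction. The shared gamma level was 774 and 793 normalized counts in the WT 2i libraries, 617 and 699 in WT d2 libraries, and 1845 and 2067 in WT d4 libraries. WT d4 stood above both earlier stages with no overlap. It was 2.97-fold higher than WT d2 (log2 change 1.57 ± 0.11 SE, limma adjusted p = 3.5e-08) and 2.50-fold higher than WT 2i (adjusted p = 1e-07), whereas WT d2 was 1.19-fold lower than WT 2i, which did not pass the threshold (adjusted p = 0.10). Adjusted p-values below were obtained over all 21450 genes tested, and a gene passed at 0.05.

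At day 4 the shared gamma level was lower in both kinds of manipulated cells than in WT. It was 935 and 1046 normalized counts in P14 d4 libraries, 986 and 1027 in DKO d4 libraries, and 1845 and 2067 in WT d4 libraries. P14 was 1.98-fold lower than WT (log2 change -0.98 ± 0.11, limma adjusted p = 9.9e-06), and DKO was 1.94-fold lower (-0.96 ± 0.11, adjusted p = 1.8e-05). P14 and DKO differed by -0.03 ± 0.11 on the log2 scale (adjusted p = 0.92), so their order cannot be given, although this does not show that they were equal. At day 2 the shared level was 612 and 607 in P14, 642 and 727 in DKO, and 617 and 699 in WT and the limma adjusted p of the 3 pairs of groups was 0.34 to 0.80. In 2i it was 938 and 932 in DKO, above 774 and 793 in WT, and this 1.19-fold difference did not pass (adjusted p = 0.18).

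The stage changes themselves differed between the kinds of cells. From 2i to day 4 the shared gamma level changed by 1.21 ± 0.15 less in DKO than in WT on the log2 scale (limma adjusted p = 9.1e-05). DKO d4 (986 and 1027) stood 1.08-fold above DKO 2i (938 and 932), which did not pass the threshold (adjusted p = 0.50). From day 2 to day 4 it changed by 0.87 ± 0.15 less in P14 than in WT (adjusted p = 0.0026), and P14 d4 was still 1.63-fold above P14 d2 (adjusted p = 0.00027). Both tests use the same WT d4 libraries.

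**Figure D1:**
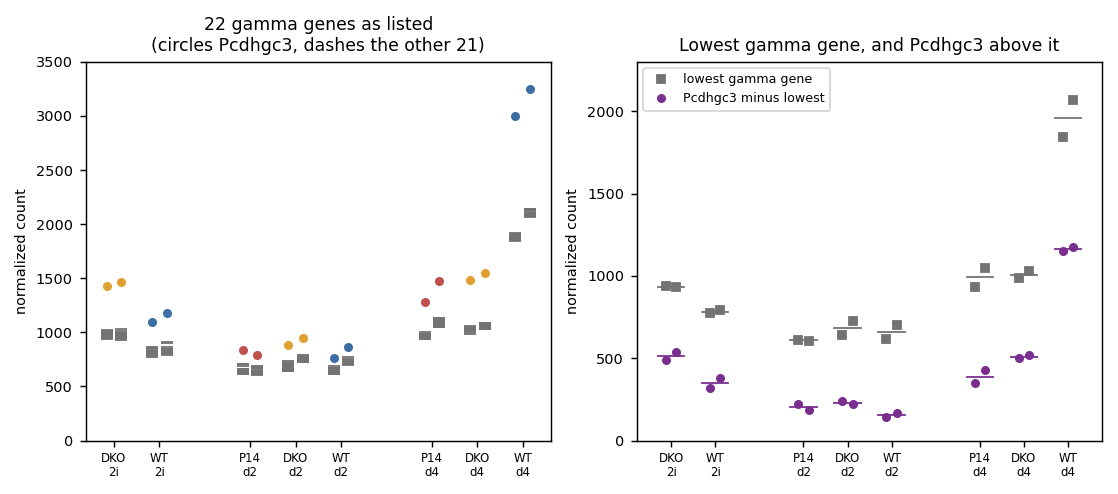
Normalized counts of the gamma genes in each of 16 libraries, with stages from left to right. On the left, circles are Pcdhgc3 (coloured by P14, DKO and WT) and dashes the other 21 genes, and on the right squares are the lowest gamma gene, circles the excess of Pcdhgc3 over it, and lines the group means. WT d4 libraries stand above all others, with 1845 and 2067 normalized counts for the lowest gene.

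Pcdhgc3 (chr18:37806364-37841873, plus strand), a C-type gene with a role in dendrite branching, was the highest gamma gene in 16 of 16 libraries. Its excess over the lowest gamma gene was 321 and 382 normalized counts in WT 2i libraries, 144 and 166 in WT d2 libraries, and 1150.4 and 1178 in WT d4 libraries. The values fell at day 2 and were highest at day 4, without overlap between stages. The excess was 2.27-fold lower in WT d2 than in WT 2i (limma adjusted p = 2.9e-05), and 7.52-fold higher in WT d4 than in WT d2 (log2 change 2.91 ± 0.15, adjusted p = 1.7e-09). Against WT 2i, WT d4 was 3.31-fold higher (adjusted p = 2e-07).

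At day 4 the Pcdhgc3 excess was 347 and 429 normalized counts in P14, 501 and 517 in DKO, and 1150.4 and 1178 in WT. All P14 and DKO libraries were below both WT libraries. P14 was 3.00-fold lower than WT (log2 change -1.59 ± 0.15, limma adjusted p = 2.2e-06), and DKO 2.29-fold lower (-1.19 ± 0.15, adjusted p = 5.2e-05). At the earlier stages DKO went the other way. The excess was 491 and 536 in DKO 2i against 321 and 382 in WT 2i (1.46-fold higher, adjusted p = 0.032), and 240.2 and 219 in DKO d2 against 144 and 166 in WT d2 (1.48-fold higher, adjusted p = 0.020). The call in 2i was lost without WT replicate 1 (log2 change 0.42) or either DKO library (0.61 and 0.49), and the call at day 2 without WT replicate 1 (0.47) or either DKO library (0.50 and 0.63). Both were also lost with only the compared groups in the fit, and the call at day 2 with limma-voom on recovered reads.

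Pcdhgc3 also took a changing share of the reads that are particular to single gamma genes. Of the summed excess of the 22 gamma genes it held 31.2 ± 0.69% in WT 2i, 23.3 ± 3.9% in WT d2 and 64.5 ± 1.8% in WT d4 (SD, n = 2 each). At day 4 its share was 35.8 ± 2.2% in P14 and 42.2 ± 5.0% in DKO. The sum itself was 1123 ± 114 normalized counts in WT 2i, 668 ± 46 in WT d2 and 1806 ± 19 in WT d4. At day 4 it was 1091 ± 227 in P14 and 1213 ± 117 in DKO. The part held by the other 21 genes together was lower in WT d4 than in WT 2i and higher than in WT d2. At day 4 that part overlapped among P14, DKO and WT, so the lower sums in P14 and DKO lay with Pcdhgc3. Per 1000 of its own exon bases the excess of Pcdhgc3 at WT d4 was 344 ± 5.8 normalized counts, against 8.44 ± 2.2 for Pcdhgc5 and 7.80 ± 1.8 for Pcdhgc4, the neighbouring C-type genes. An annotated antisense gene, BC037039, overlaps 1559 bases of the Pcdhgc3 exon, and its own count was 0.550 to 0.738 of the Pcdhgc3 excess in every library. The kit keeps strand, but no source used here gives the strand setting of the counting, so reads of the pair cannot be told apart.

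The A-type genes Pcdhga1 and Pcdhga8, which carry alternative first exons, moved against the shared gamma level between day 2 and day 4 in WT cells. The Pcdhga1 excess was 90.0 and 72.9 normalized counts in WT 2i, 69.3 and 68.8 in WT d2, and 4.32 and 7.22 in WT d4. The WT d4 values were below all others. They were 14.1-fold lower than WT 2i (log2 change -3.63 ± 0.34, limma adjusted p = 4.9e-07) and 12.0-fold lower than WT d2 (adjusted p = 2e-06). The lowest gene was Pcdhgb8 in the WT d4 libraries and another gene elsewhere, so the size of these folds depends on that reference. Pcdhga1 ranked second among the 22 gamma genes by excess in 8 of 10 libraries from 2i and day 2, but it ranked 21 and 20 in the WT d4 libraries. The Pcdhga8 excess was 85.2 and 116 in WT 2i, 49.8 and 57.5 in WT d2, and 15.1 and 10.8 in WT d4, so that WT d4 was 7.76-fold lower than WT 2i (adjusted p = 3.6e-05).

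The fall of Pcdhga1 was smaller in both kinds of manipulated cells. From 2i to day 4 its excess changed by 2.69 ± 0.48 more in DKO than in WT on the log2 scale (limma adjusted p = 0.0017), and from day 2 to day 4 by 2.87 ± 0.48 more in P14 than in WT (adjusted p = 0.0020). The Pcdhga1 excess at day 4 was 51.2 and 70.5 normalized counts in P14, 47.2 and 44.9 in DKO, and 4.32 and 7.22 in WT. No P14 or DKO library overlapped with WT, and the gene was 10.5-fold higher in P14 (log2 change 3.21 ± 0.34, limma adjusted p = 7.6e-06) and 7.98-fold higher in DKO (2.83 ± 0.34, adjusted p = 3.5e-05). The lowest gene was Pcdhgb8 in WT d4, Pcdhga6 in DKO d4 and Pcdhgc4 in P14 d4. The reference thus changed with the group, and the sizes and p-values of all differences in this paragraph depend on it. The Pcdhga8 excess was 52.1 and 89.6 in P14, 55.1 and 22.9 in DKO, and 15.1 and 10.8 in WT. The difference from WT was 5.46-fold in P14 (adjusted p = 0.00073) and 3.01-fold in DKO (adjusted p = 0.030), and the DKO call was lost without WT replicate 1 (log2 change 1.63), WT replicate 2 (1.18) or DKO replicate 1 (0.79), with limma-voom or with only the compared groups. Without DKO replicate 2 the log2 change was 2.02.

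Pcdhgb5, a B-type gene, was already lower at day 2 of WT induction. Its excess was 74.4 and 107 normalized counts in WT 2i, 29.2 and 22.6 in WT d2, and 22.7 and 27.1 in WT d4. Both later stages were below 2i without overlap, by 3.50-fold at day 2 (limma adjusted p = 0.0014) and 3.64-fold at day 4 (adjusted p = 0.00054). At day 2 it was 80.8 and 65.5 in P14 and 29.2 and 22.6 in WT, a 2.82-fold difference (adjusted p = 0.014) that was lost without WT replicate 2 (log2 change 1.29), without P14 replicate 1 (1.32) or with only the compared groups.

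The lowest gene is not the same gene in every library, so the differences were also taken from 1 fixed gene, Pcdhgc4, a C-type gene needed for the survival of neurons. Pcdhga1 minus Pcdhgc4 was -18.3 and -24.5 normalized counts in the WT d4 libraries. It was 51.1 and 70.4 in P14 d4, 40.3 and 37.2 in DKO d4, and between 48.6 and 97.4 in the 2i and day 2 libraries. The sign in WT d4 was therefore opposite to that in the other 14 libraries. Pcdhgc4 itself stood 22.7 and 31.6 above the lowest gene in WT d4 and 12.7 or less above it elsewhere, so the lowest gene and Pcdhgc4 give different sizes for the same fall. Against Pcdhgc4 the Pcdhga1 values in WT d4 are negative, so no fold against WT d4 can be given. An antisense gene, Gm37118, overlaps 406 bases of the Pcdhga1 exon and had 4.32 and 12.6 normalized counts in WT d4, and 11.8 to 43.5 in the other libraries. Its part in the Pcdhga1 values was not tested.

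**Figure D2:**
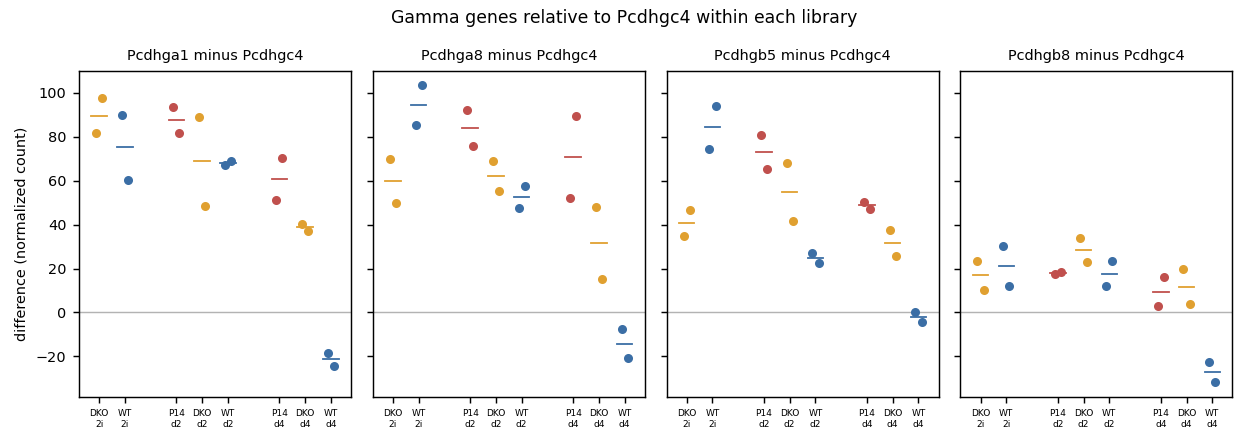
Normalized counts of 4 gamma genes minus Pcdhgc4 in each library, so that reads shared by the whole cluster cancel, with lines at group means and colours for P14, DKO and WT. WT d4 libraries are the lowest in each panel, at -18.3 and -24.5 for Pcdhga1.

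As listed, the gamma counts followed the shared reads. In WT d4 against WT d2, 26 of 44 protocadherin genes passed, all higher, against a background of 33.0% of all genes that passed in either direction and 17.2% that were higher. They were the 22 gamma genes, Pcdhb22, Pcdh1, Pcdh7 and Pcdh18. In WT d4 against WT 2i, 40 of 44 passed, all higher, against 40.6% of all genes in either direction and 21.9% higher, and the median log2 change of the 22 gamma genes was 1.29, against 0.01 over all genes. In WT d2 against WT 2i, 7 of 44 passed, 3 non-clustered genes higher and 4 gamma genes lower (background 23.4%), and 3 passed without WT 2i replicate 1, without WT 2i replicate 2 or without WT d2 replicate 1. Since the gamma genes share reads, these shares of members cannot be set against the background as 44 separate genes would be.

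The C-type genes Pcdhgc4 and Pcdhgc5 show the same as listed. At day 4 Pcdhgc4 averaged 990.4 ± 78 normalized counts in P14, 1014 ± 29 in DKO and 1984 ± 163 in WT. Pcdhgc5 averaged 1007 ± 89 in P14, 1026 ± 16 in DKO and 2003 ± 145 in WT. These counts are mostly the shared gamma reads. The excess of Pcdhgc4 over the lowest gamma gene was 0 in P14, 7.26 ± 0.53 in DKO and 27.1 ± 6.3 in WT. That of Pcdhgc5 was 16.6 ± 11 in P14, 19.5 ± 13 in DKO and 46.5 ± 12 in WT. In P14 d4 against WT d4, 37 of 44 protocadherin genes passed, all lower (background 16.2% of genes in either direction, 8.75% lower). Of 44 genes, 23 passed in DKO d4 against WT d4, all lower (background 13.8%, with 6.80% lower), namely the 22 gamma genes and Pcdh1. Without each library in turn, the P14 count was 25 to 27 and the DKO count 23.

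The alpha cluster was close to silent. No alpha gene had more than 40 recovered reads in any library, and at most 24 of these were the shared reads of the lowest alpha gene. The shared alpha level was 1.20 and 6.78 normalized counts in WT 2i, 8.66 and 6.60 in WT d2, and 17.3 and 21.7 in WT d4. WT d4 was above the other WT stages, by 4.88-fold over WT 2i (log2 change 2.30 ± 0.76, limma adjusted p = 0.024), but the call was lost without WT 2i replicate 1 (1.39), WT d4 replicate 1 (2.45) or WT d4 replicate 2 (2.14) and with only the compared groups. Without WT 2i replicate 2 the change was 3.21. Of 13 alpha genes, 12 passed in that comparison as listed. Counts of called alpha genes are again mostly 1 measurement repeated.

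At day 4 the shared alpha level was 1.83 and 4.03 normalized counts in P14, 12.8 and 13.4 in DKO, and 17.3 and 21.7 in WT. P14 was 6.65-fold lower than WT (log2 change -2.43 ± 0.76, limma adjusted p = 0.040), and the call was lost without either WT library (-2.59 and -2.28) or either P14 library (-2.02 and -2.85) and with a pseudocount of 0.5. DKO differed from WT by -0.53 ± 0.76, which did not pass (adjusted p = 0.72). DKO d4 rose over DKO 2i, where the level was 0 and 1.58, by at least 4.71-fold against a floor of 3 reads in each library (adjusted p = 0.0051), and the call was lost without DKO 2i replicate 1 (log2 change 2.44, and 3.81 without DKO 2i replicate 2). In that comparison 18 of 44 protocadherin genes passed, all higher, against a background of 31.9% in either direction and 18.1% higher: the 13 alpha genes and Pcdh1, Pcdh7, Pcdh8, Pcdh18 and Pcdh19. Without DKO 2i replicate 1 the count was 10. The direction of the shared level is the same in these settings, but at this depth a few reads decide the calls.

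Among alpha genes, Pcdhac2, a C-type gene with a role in serotonin axon spacing, was the highest at day 4. It had 5.48 and 6.04 normalized counts in P14 d4, 22.6 and 19.1 in DKO d4, and 28.1 and 36.1 in WT d4, where it was lowest in P14 and highest in WT. P14 against WT did not pass (log2 change -2.28 ± 0.79, limma adjusted p = 0.064). Over WT 2i, with 1.20 and 10.2, WT d4 was 5.65-fold higher (adjusted p = 0.012), and without WT 2i replicate 1 (log2 change 1.56) or WT d4 replicate 2 (2.55) this was lost, and without WT 2i replicate 2 the change was 3.90. Pcdhac1, the other alpha C-type gene, had 1.83 and 4.03 in P14 d4, 12.8 and 13.4 in DKO d4, and 17.3 and 23.5 in WT d4. These counts of both genes are as listed and include the shared alpha reads. The excess of Pcdhac2 over the lowest alpha gene was 3.66 and 2.01 in P14 d4, 9.83 and 5.73 in DKO d4, and 10.8 and 14.4 in WT d4. The excess of Pcdhac1 was 0 and 0 in P14 d4, 0 and 0 in DKO d4, and 0 and 1.81 in WT d4.

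The 3 beta genes, each a separate transcript that shares no constant exon, were low. Pcdhb22 had 2.40 and 6.78 normalized counts in WT 2i, 2.16 and 6.60 in WT d2, and 46.4 and 33.4 in WT d4. WT d4 did not overlap with the earlier stages and was 9.11-fold higher than WT d2 (log2 change 3.04 ± 0.58, limma adjusted p = 0.00086) and 8.70-fold higher than WT 2i (adjusted p = 0.00071). Without 1 WT d2 library the first log2 change was 2.41 or 3.67, and without 1 WT 2i library the second was 2.38 or 3.57. In P14 it had 20.1 and 21.1 at day 4 against 2.52 and 4.60 at day 2, a 5.79-fold rise (adjusted p = 0.010) that was lost without P14 d2 replicate 1 (log2 change 1.95), P14 d4 replicate 1 (2.32) or P14 d4 replicate 2 (2.25) and with only the compared groups. At day 4 DKO had 20.7 and 19.1, so both were below WT, but neither P14 (log2 change -0.90 ± 0.58) nor DKO (-0.95 ± 0.58) passed against it. Pcdhb17 had 1.83 and 2.01 in P14 d4, 7.87 and 5.73 in DKO d4, and 18.3 and 10.8 in WT d4. Its rise over WT 2i (0 and 1.69), by at least 4.75-fold against a floor of 3 reads in each library, passed (adjusted p = 0.040) but not without any 1 of the 4 libraries (log2 changes 2.49 to 3.92), with a pseudocount of 0.5 or with limma-voom. Pcdhb14 lay between 1.08 and 17.4 in every library and passed in no comparison of 2 groups (limma, unadjusted p = 0.043 in WT d4 against WT d2). Part of Pcdhb22 (455 bases) overlaps Pcdhb21, which was not analysed here.

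**Figure D3:**
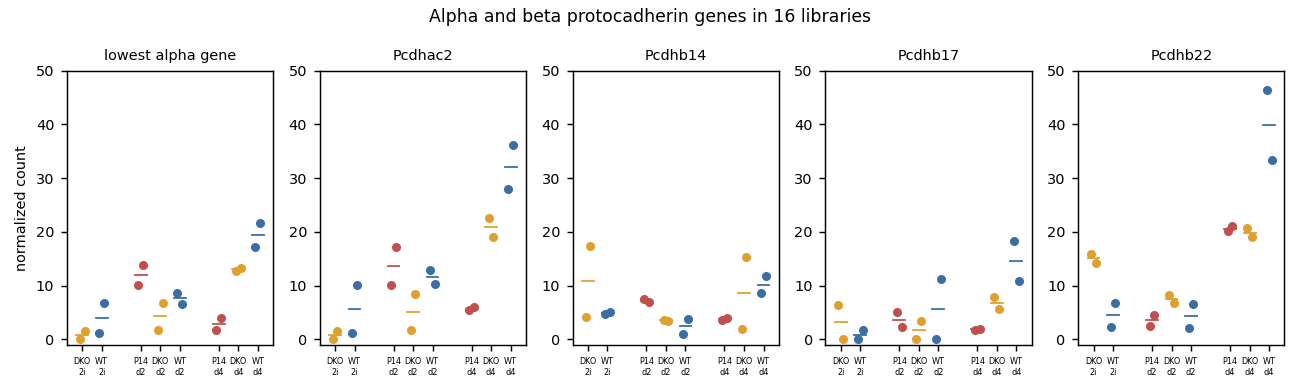
Normalized counts of the lowest alpha gene (the shared alpha reads), of Pcdhac2 and of the 3 beta genes in each library, with lines at group means and colours for P14, DKO and WT. All values are at or below 46.4, and Pcdhb22 is highest in WT d4, at 46.4 and 33.4.

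The 6 non-clustered genes share no exons, and each count is a measurement of its own. Pcdh18, Pcdh7 and Pcdh8 had 4.03 normalized counts or fewer in P14 d4 and passed as lower than in WT d4, and their RefSeq promoter windows (GRCm38.p6, 250 bases before to 50 after the start) are shown for this reason, with TATAAA and GGGCGG on either strand in capitals. Pcdh18 lies on the minus strand (window chr3:49757267-49757566), Pcdh7 on the plus strand (chr5:57717831-57718130) and Pcdh8 on the minus strand (chr14:79771263-79771562).
Pcdh18: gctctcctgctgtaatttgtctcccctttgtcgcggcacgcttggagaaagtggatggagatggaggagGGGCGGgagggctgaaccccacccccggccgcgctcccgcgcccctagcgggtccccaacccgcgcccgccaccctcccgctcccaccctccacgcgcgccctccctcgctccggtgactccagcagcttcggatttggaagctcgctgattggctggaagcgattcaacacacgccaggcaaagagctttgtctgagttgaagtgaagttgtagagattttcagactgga
Pcdh7: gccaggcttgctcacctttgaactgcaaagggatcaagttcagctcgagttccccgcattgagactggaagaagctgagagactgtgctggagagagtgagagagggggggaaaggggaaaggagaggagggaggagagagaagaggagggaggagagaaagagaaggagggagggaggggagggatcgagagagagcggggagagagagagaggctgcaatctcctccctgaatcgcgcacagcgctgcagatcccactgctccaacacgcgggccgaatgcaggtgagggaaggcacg
Pcdh8: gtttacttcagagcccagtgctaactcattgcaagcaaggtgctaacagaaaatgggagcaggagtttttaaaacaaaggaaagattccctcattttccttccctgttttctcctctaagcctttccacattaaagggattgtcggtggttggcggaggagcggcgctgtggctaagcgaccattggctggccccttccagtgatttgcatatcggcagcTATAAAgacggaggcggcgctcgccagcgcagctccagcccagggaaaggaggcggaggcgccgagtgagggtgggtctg
The Pcdh18 window held 23 CG dinucleotides and 1 GGGCGG, 181 bases before the start. The Pcdh7 window held 11 CG dinucleotides and neither motif, and the Pcdh8 window held 14 and 1 TATAAA, 30 bases before the start. The median over 32851 mouse windows was 7 CG dinucleotides, and 13.6% of them held TATAAA and 35.7% GGGCGG. The windows of Pcdh17 and Pcdh19 held 26 and 18 CG dinucleotides in that order, and 1 GGGCGG each (131 and 100 bases before the start) but no TATAAA. Pcdh17 was also low in P14 d4, with 0 and 2.01 normalized counts, but did not pass against WT d4.

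Pcdh18 (GRCm38 chr3:49743296-49757325, minus strand), which in zebrafish takes part in cell movement during gastrulation, separated P14 from DKO. It had 0 and 0 normalized counts in P14 d4, 78.7 and 74.5 in DKO d4, and 80.9 and 70.4 in WT d4. DKO and WT overlapped, and P14 was listed at no reads at all. Against a floor of 3 reads in each library, P14 was at least 26.3-fold lower than WT (limma adjusted p = 8.1e-06) and at least 26.6-fold lower than DKO (adjusted p = 1.4e-05). DKO and WT differed by 0.02 ± 0.67 on the log2 scale (adjusted p = 0.99).

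The day 4 level of Pcdh18 was reached after day 2. It had 0 and 0 normalized counts in WT 2i, 2.16 and 3.77 in WT d2, and 80.9 and 70.4 in WT d4, a 25.5-fold rise between day 2 and day 4 (log2 change 4.30 ± 0.67, limma adjusted p = 0.00015). P14 libraries had 2.52 and 4.60 at day 2, overlapping with DKO (3.67 and 8.53) and WT at that day. The change from day 2 to day 4 differed between P14 and WT by -6.45 ± 0.95 on the log2 scale (adjusted p = 0.00077). Small differences at low level also passed, for WT d2 over WT 2i (adjusted p = 0.046) and for P14 d4 under P14 d2 (adjusted p = 0.031), but both were lost without any 1 of the libraries compared (log2 changes 1.66 to 2.25 and -2.48 to -1.82), with limma-voom, with a pseudocount of 4 and with only the compared groups.

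Pcdh7 (chr5:57717967-58133230, plus strand), an adhesion protein studied in frog ectoderm, showed the same order at lower counts. It had 0 and 0 normalized counts in P14 d4, 17.7 and 15.3 in DKO d4, and 17.3 and 16.3 in WT d4. P14 was at least 5.82-fold lower than WT (limma adjusted p = 0.0014) and at least 5.72-fold lower than DKO (adjusted p = 0.0021), against a floor of 3 reads in each library, while DKO and WT overlapped. Pcdh7 was listed at 0 in all 4 libraries from 2i. The P14 change from day 2 to day 4 differed from that of WT by -3.97 ± 1.10 (adjusted p = 0.049), and this call was lost without WT d2 replicate 1 (-3.21), P14 d2 replicate 1 (-3.39) or any 1 of the 4 day 4 libraries (-4.02 to -3.93). It was also lost with limma-voom, with a pseudocount of 0.5 and with only the compared groups, and the change was -4.74 without WT d2 replicate 2 and -4.56 without P14 d2 replicate 2. Reads of an antisense gene, 4932441J04Rik, which overlaps 2235 of its exon bases, cannot be told apart from those of Pcdh7. That gene had 0 and 0 normalized counts in P14 d4, 14.8 and 4.77 in DKO d4, and 9.71 and 4.51 in WT d4.

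Pcdh8 (chr14:79766775-79771312, minus strand), known for its part in paraxial mesoderm, was already higher at day 2 of WT induction. It had 0 and 3.39 normalized counts in WT 2i, 23.8 and 17.0 in WT d2, and 30.2 and 36.1 in WT d4. WT d2 was at least 5.83-fold higher than WT 2i (limma adjusted p = 0.0040), which was lost without WT 2i replicate 1 (log2 change 2.27, and 4.40 without WT 2i replicate 2), and WT d4 was at least 9.49-fold higher than WT 2i (adjusted p = 0.00046; log2 change 4.02, and 2.96 or 5.09 without 1 of the WT 2i libraries). At day 4 it had 1.83 and 4.03 in P14, 8.85 and 19.1 in DKO, and 30.2 and 36.1 in WT, with no overlap between any 2 groups. P14 was 11.3-fold lower than WT (adjusted p = 0.0079), which was lost without WT replicate 2 (-3.05) or P14 replicate 1 (-2.76), and DKO was 2.37-fold lower, which did not pass (adjusted p = 0.31). Gm9748 overlaps 436 bases of Pcdh8 on the other strand.

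Pcdh1 (chr18:38185914-38212053, minus strand), an adhesion protein of epithelia, had the highest counts outside the clusters and was lower in both kinds of manipulated cells. It had 22.8 and 31.3 normalized counts in WT 2i, 512 and 441 in WT d2, and 789.9 and 764 in WT d4. WT d2 was 17.6-fold higher than WT 2i (log2 change 4.10 ± 0.21, limma adjusted p = 1.3e-09), whereas the shared gamma level did not pass between these stages. WT d4 was 1.63-fold higher than WT d2 (adjusted p = 0.015), which was lost without WT d2 replicate 2 (log2 change 0.60), WT d4 replicate 1 (0.68) or WT d4 replicate 2 (0.73).

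At day 2 Pcdh1 had 283 and 206 normalized counts in P14, 95.4 and 79.3 in DKO, and 512 and 441 in WT. The order was WT, P14, DKO, with no overlap. P14 was 1.95-fold lower than WT (log2 change -0.98 ± 0.21, limma adjusted p = 0.0074), which was lost without WT d2 replicate 1 (-0.87), and DKO was 5.45-fold lower (-2.44 ± 0.21, adjusted p = 1.4e-06). P14 was 2.80-fold higher than DKO (adjusted p = 0.00015). Pcdh1 was the only protocadherin gene to pass in these 3 comparisons, in which 8.38%, 12.6% and 15.9% of all genes passed. Without WT d2 replicate 2, the number in DKO against WT was 2.

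At day 4 Pcdh1 had 224 and 248 normalized counts in P14, 296 and 292 in DKO, and 789.9 and 764 in WT. P14 was 3.29-fold lower than WT (limma adjusted p = 2.3e-05) and DKO 2.64-fold lower (adjusted p = 0.00025). P14 was 1.25-fold lower than DKO, without overlap but short of the threshold (adjusted p = 0.36). In 2i it had 12.7 and 13.5 in DKO and 22.8 and 31.3 in WT, 2.07-fold lower in DKO (adjusted p = 0.0074). That call was lost without WT replicate 2 (log2 change -0.76) or DKO replicate 1 (-0.94), with limma-voom and with only the compared groups. Pcdh1 (lower) and Pcdhgc3 as listed (higher) were the 2 protocadherin genes that passed in DKO against WT in 2i (background 8.67%). The number was 1 without WT replicate 1 or DKO replicate 2, and neither gene passed without WT replicate 2 or DKO replicate 1.

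The DKO deficit in Pcdh1 differed with stage. From 2i to day 2 Pcdh1 changed by 1.46 ± 0.29 less in DKO than in WT on the log2 scale (limma adjusted p = 0.0094), the only protocadherin gene to pass in this test (background 3.73%). The call was lost without WT d2 replicate 1 (-1.35) or DKO d2 replicate 2 (-1.33), with limma-voom and with only the compared groups. From 2i to day 4, 23 protocadherin genes passed the same kind of test (background 9.76%), the 22 gamma genes with a smaller change in DKO and Pcdh19 with a larger one. For P14 from day 2 to day 4, 24 passed (background 5.43%, with 2.93% negative), all with a more negative change in P14, namely the 22 gamma genes, Pcdh18 and Pcdh7.

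Pcdh19 (chrX:133582860-133688987, minus strand), a gene whose mutation causes epilepsy in humans, went another way. It had 23.8 and 46.3 normalized counts in P14 d4, 124.9 and 78.3 in DKO d4, and 41.0 and 71.3 in WT d4. In 2i it had 22.3 and 37.2 in DKO against 62.4 and 70.3 in WT, so DKO was below WT in 2i and above it at day 4, without overlap at either stage. Neither difference passed alone (adjusted p = 0.11 in 2i and 0.21 at day 4). DKO d4 was 3.42-fold higher than DKO 2i (limma adjusted p = 0.0051), lost without DKO 2i replicate 1 (log2 change 1.39) or DKO d4 replicate 1 (1.41), and P14 d4 was 2.90-fold lower than DKO d4 (adjusted p = 0.024), lost without DKO replicate 1 (-1.21) or P14 replicate 1 (-1.08) and with only the compared groups. In P14 d4 against DKO d4, 3 protocadherin genes passed, Pcdh7, Pcdh18 and Pcdh19, all lower (background 13.4%, with 7.17% lower).

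Pcdh17 (chr14:84443563-84539002, plus strand), a protein of presynaptic sites in the basal ganglia, stayed at 13.6 normalized counts or fewer. It averaged 1.01 ± 1.4 in P14 d4, 8.74 ± 1.6 in DKO d4 and 4.87 ± 0.78 in WT d4. It passed in none of the comparisons (limma, unadjusted p = 0.016 in P14 d4 against DKO d4 and 0.030 in the DKO test of stage from 2i to day 2). In P14 d4 against P14 d2, 24 of 44 protocadherin genes passed (background 22.5%), with the 22 gamma genes and Pcdhb22 higher and Pcdh18 lower.

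**Figure D4:**
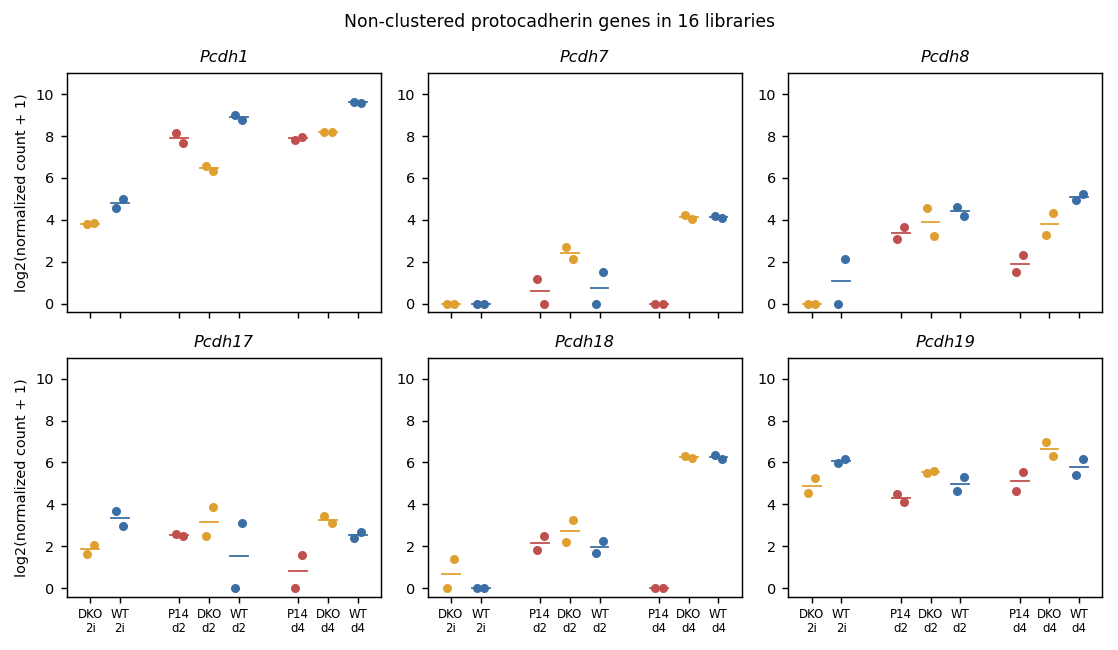
The 6 non-clustered protocadherin genes in each library as log2 of the normalized count plus 1, with lines at group means and colours for P14, DKO and WT. Pcdh18 and Pcdh7 are at 0 in both P14 d4 libraries and at like levels in DKO d4 and WT d4, while Pcdh1 is highest in WT at each stage.

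**Figure D5:**
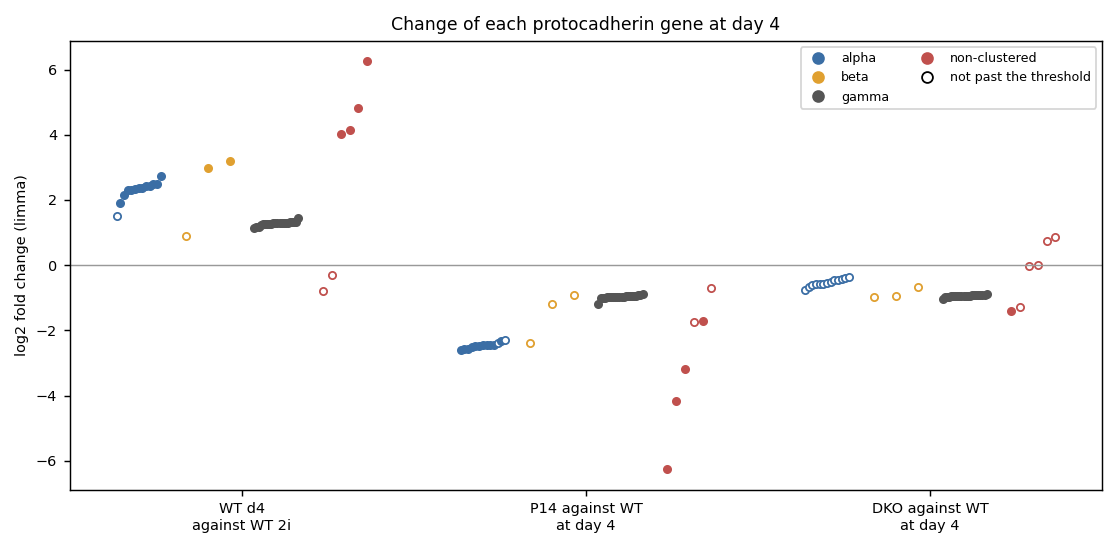
The log2 fold change (limma) of every protocadherin gene in 3 comparisons, grouped by cluster, with filled circles for genes that passed the threshold and open circles for the others. The 22 gamma genes share reads and sit in a narrow band, while the non-clustered genes spread from -6.26 to -0.69 in P14 against WT.

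Marker lists of cell types also differed at day 4, and not all moved the same way in P14 and DKO. Of 11 measured pluripotency genes, 7 were higher and 2 lower in P14 than in WT (median log2 change 1.85). In DKO, 8 were higher and 1 lower (median 2.04), where 16.2% and 13.8% of all genes passed in either direction. Their sum was 15161 to 16512.5 normalized counts in P14, 23365 to 24145 in DKO, and 17452 to 18301 in WT. At day 4 the summed level of 12 primitive endoderm genes was 6613 to 7547 normalized counts in P14, 15037 to 15962 in DKO, and 13631 to 14742 in WT, none at 0. Of these 12, 9 were lower and 1 higher in P14 than in WT, against 16.2% of all genes that passed in either direction. The sum over 16 measured neural genes was 4840 to 5373 in P14, 8145 to 8455 in DKO, and 10859 to 11662 in WT, with 7 lower in P14 than in WT and 1 at 0 in P14. In DKO against WT, 1 was higher and 5 lower. Cdh2, whose values are given below, belongs to this list and made up much of these differences. A list of neuron genes, with 8 measured, summed to 1967 to 2083 in P14, 3289 to 3300 in DKO, and 2179 to 2331 in WT. Of these 8, 1 was lower in P14 than in WT, and 1 was higher and none lower in DKO. For 9 primitive streak and mesoderm genes the sum was 542 to 682 in P14, 1848 to 1983 in DKO, and 2692 to 2770 in WT. Meox1, a gene of paraxial mesoderm, made up most of the WT sum, with 59.4 and 82.5 normalized counts in P14, 886 and 952 in DKO, and 2168 and 2258 in WT. Of the 9 genes, 1 was higher and 2 lower in P14 than in WT. In DKO against WT, 2 were higher (Kdr and Eomes), where 13.8% of all genes passed in either direction. The median log2 change of the 9 genes was 0.42 in DKO against WT. The 6 measured fibroblast genes summed to 120 to 136 in P14, 217 to 230.1 in DKO, and 311 to 353 in WT, with 1 of them at 0 in P14 and in DKO. The part of these cells in the protocadherin values was not tested. In such bulk libraries fewer cells of a type and less RNA per cell cannot be told apart.

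Clustered protocadherin promoters are bound by CTCF and looped by cohesin, and in stem cells many are silenced through DNA methylation, SMCHD1 and SETDB1. At day 4, 16.2% of all genes passed in P14 against WT and 13.8% in DKO against WT, and the median log2 change over all genes was 0 in P14 and -0.03 in DKO. Of 14 CTCF and cohesin genes, 1 was higher and 1 lower in P14 (median log2 change 0.09), and 1 was lower in DKO (median -0.13), shares no higher than those over all genes. Stag2, a cohesin subunit, had 1233 and 1190 normalized counts in P14 d4, 1293 and 1411 in DKO d4, and 1814 and 1931 in WT d4, and was lower in P14 (1.55-fold, limma adjusted p = 0.0016) and in DKO (1.38-fold, adjusted p = 0.015). Of 18 genes of silencing and DNA methylation, 2 were higher and 4 lower in P14 than in WT at day 4, and 4 higher and 3 lower in DKO (median log2 changes -0.06 in P14 and 0.05 in DKO). Tet1, a methylcytosine oxidase, was 2.28-fold higher in P14 (adjusted p = 2e-06) and 2.78-fold higher in DKO (adjusted p = 2.5e-07). Dnmt3b, a de novo DNA methyltransferase, was 2.51-fold lower in P14 (adjusted p = 5e-07). The part of these genes in the protocadherin values was not tested.

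Of 21 genes that act downstream of protocadherins, 2 were lower in P14 than in WT at day 4, and 4 were lower and 1 higher in DKO, against backgrounds of 16.2% and 13.8% of all genes in either direction. The median log2 change of the list was -0.16 in P14 and -0.14 in DKO. Fyn, a kinase that was found to bind alpha protocadherins, had 910 and 817 normalized counts in P14 d4, 629 and 650 in DKO d4, and 1417 and 1426 in WT d4. It was lower in P14 (1.65-fold, limma adjusted p = 0.00028) and in DKO (2.22-fold, adjusted p = 3.9e-06). Of 32 measured genes of other cadherins, 1 was higher and 8 lower in P14, and 2 higher and 6 lower in DKO, where 8.75% of all genes were lower in P14 and 6.80% in DKO. The median log2 change of these cadherins was -0.36 in P14 and -0.66 in DKO. Cdh2, the neural cadherin, had 546 and 569 in P14 d4, 1509 and 1953 in DKO d4, and 3551 and 3976 in WT d4, and was 6.76-fold lower in P14 (adjusted p = 1e-07) and 2.17-fold lower in DKO (adjusted p = 0.0009). Cdh1, the epithelial cadherin, was 4.33-fold lower in DKO (adjusted p = 3.3e-08) and had a log2 change of -0.03 in P14 (adjusted p = 0.94).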

How the data were processed

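RNA-seq was made from total RNA with a stranded Collibri kit, per the labels' protocols. Per the submitters' processing notes, Trim Galore, HISAT2 and featureCounts were used with mm10/GRCm38. Sources used here do not give the annotation, the strand setting, the handling of reads over several genes or the scaling. The deposited values are log2 values. As powers of 2 less 4 they were multiples of a single step in each library (100% whole within 0.1 of a read under 1000 reads), so they were read as log2 of a normalized count plus 4. Entries without a symbol (667 of 22122, with 7.61% to 11.1% of reads) were left out. Symbols were matched to GENCODE M21, all of them.

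The log2 of value plus 1 was fitted with limma 3.58.1 (R 4.3.3), with group means of all 8 groups and a trended prior, for 21450 genes that reached 1 in 2 libraries. P-values were adjusted by Benjamini-Hochberg within each of 15 comparisons, two-sided. Folds are ratios of group means, and log2 changes are on the log2(value + 1) scale, which understates changes of low genes. Where a group averaged under 3 reads, the fold is a bound against 3 reads in each library and covers counting error only. The test was checked on simulated data. Non-clustered and C-type genes were always named. Of the other clustered genes that passed, up to 3 per cluster and comparison with the largest change entered the checks of processing. Not all of these are described above, and Pcdhga1 was not picked by this rule. The excess rows were chosen after seeing the data. The members and lists were chosen with earlier results of these data known.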

Additional observations from a re-analysis of the deposited data

Results flagged for a closer look

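Pcdh1, DKO against WT, changed by -1.46 on the log2 scale from 2i to day 2 relative to WT (limma interaction, adjusted p = 0.0094, 4 groups of 2 libraries). This was lost without WT d2 replicate 1 (-1.35) or DKO d2 replicate 2 (-1.33).

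Pcdh19 changed by 2.03 more in DKO than in WT from 2i to day 4 (limma interaction, adjusted p = 0.044). It was lost without either WT 2i library (2.12 and 1.95), DKO 2i replicate 1 (1.67), WT d4 replicate 1 (1.64) or DKO d4 replicate 1 (1.70).

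Pcdhgc3 as listed changed by -1.39 in DKO relative to WT from 2i to day 4 (limma interaction, adjusted p = 1.7e-05). It stayed past the threshold without each library in turn.

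Pcdh18 changed by -6.45 in P14 relative to WT from day 2 to day 4 (limma interaction, adjusted p = 0.00077), and it too stayed past the threshold without each library in turn.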

How the results depend on the processing

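Counts of protocadherin genes that passed moved by over 1.5 times in 5 comparisons. In WT d2 against WT 2i (7 genes) the count was 3 with libraries scaled to their totals, 4 with limma-voom on recovered reads, 3 with only the compared groups in the fit and 11 with the replicate number as a block. In DKO against WT in 2i (2 genes) it was 1 with limma-voom and 0 with only the compared groups. In the DKO test of stage from 2i to day 2 (1 gene) it was 0 with limma-voom and 0 with only the compared groups. In P14 against DKO it was 2 at day 2 (1 gene) with total scaling, and 6 at day 4 (3 genes) with a pseudocount of 4. The cause was not tested. Leaving out 1 library gave 3 to 6 (WT d2 against WT 2i), 25 to 26 (WT d4 against d2), 27 to 39 (WT d4 against 2i), 0 to 1 (DKO in 2i), 1 to 2 (DKO at d2), 23 to 23 (DKO at d4), 0 to 1 (P14 at d2), 25 to 27 (P14 at d4), 1 to 1 and 2 to 3 (P14 against DKO at d2 and d4), 10 to 18 (DKO d4 against 2i), 22 to 23 (P14 d4 against d2), and 0 to 1, 22 to 23 and 23 to 24 (the tests of stage in DKO to d2, DKO to d4 and P14), assuming that the lone library varied like the other groups. Of 76 results on named genes, 50 kept their call in every alternative, and 107 of 1028 values lost it. Of 573 values on shared and excess counts, 66 lost it. None reversed. Scaling to totals moved the median log2 change of all genes in WT d4 against WT 2i to 0.17, against 0.01. Replicate numbers did not pair the libraries: deviations of equally numbered libraries correlated at -0.13 to 0.19, over 0.1 in 2 of 28 pairs of groups. The shared alpha reads, at most 24 in a library, limit what can be said of that cluster.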
